A study of Caenorhabditis elegans with 2 samples.

Results

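The genes described are the numbered ligand-gated ion channel genes of Caenorhabditis elegans, the lgc class, with the named channel genes unc-49, gab-1, exp-1 and mod-1. They were taken from the Ensembl release 115 annotation of WBcel235 by symbol and biotype, which gave 60 protein-coding genes of 19973 on the 6 nuclear chromosomes. The binding data were ChIP-seq peaks (chromatin immunoprecipitation followed by sequencing) from whole hermaphrodite late embryos of strain OP173. This line stably expressed UNC-42 fused at its C terminus to GFP and FLAG, and embryos were taken 3 hours after synchronisation by egg bleaching. There were 2 biological replicates of 1 group. An antibody to GFP was used according to the free-text label, although the antibody entry names unc-42. All samples carried the transgene, no sample without it was analysed, and the label gives no cell type below the whole organism, so neither the specificity of a peak for UNC-42 nor the cells it comes from can be told.

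Channels of this class belong to the pentameric Cys-loop receptors, in which a transmitter binds outside the membrane and opens an ion pore formed by the subunits. In C. elegans the family is unusually broad: besides the nicotinic receptors it holds channels that are opened by GABA, serotonin, dopamine, tyramine or acetylcholine and that pass either cations or anions, so that the same transmitter can excite or inhibit. UNC-42 is a paired-like homeodomain factor known for its part in fixing what kinds of neuron form in worm circuits, and homeodomain factors typically contact sequences with a TAAT core.

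A channel gene was called bound when the summit of a peak from the optimal set on ce11 lay in its body or up to 2000 bp upstream of its 5' end. The optimal set holds 4780 peaks and is labelled as thresholded by the irreproducible discovery rate, a measure of how well peak ranks repeat between replicates. It was the same as the first 4780 entries, by signal, of the list pooled from both replicates. A place in it thus followed the pooled signal, and the ranks of a site in each replicate could differ widely. By this rule 11 of the 60 channel genes were bound, which is 18.3% (95% exact Clopper-Pearson interval 9.52 to 30.4%). The same rule called 3917 of all protein-coding genes, or 19.6%, so the channel genes' share was near the background. The 11 genes were lgc-47, lgc-46, lgc-57, lgc-30, lgc-52, lgc-51, lgc-53, lgc-38, lgc-4, lgc-37 and lgc-56, in the order of their strongest signal. The intervals of shares cover counting error only and treat genes as independent.

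The strongest summits lay inside the genes. Sequence is shown for the 8 summits in an intron of the channel gene itself, where most of these summits lay, and for the intergenic summit of lgc-37 as a window without a TAAT core. The first window of lgc-47 reaches into a coding exon, and the others hold no annotated exon of a protein-coding gene. Each window is 201 bases of the forward strand of ce11, read from the RefSeq sequence of WBcel235, with the summit in the middle. The capitals mark TAAT or its reverse complement ATTA. The first pair are the strongest summits of lgc-47, the third is the strongest of lgc-46, and the rest belong to lgc-57, lgc-30, lgc-53, lgc-38, lgc-4 and lgc-37.
lgc-47, chrX:9803735-9803935: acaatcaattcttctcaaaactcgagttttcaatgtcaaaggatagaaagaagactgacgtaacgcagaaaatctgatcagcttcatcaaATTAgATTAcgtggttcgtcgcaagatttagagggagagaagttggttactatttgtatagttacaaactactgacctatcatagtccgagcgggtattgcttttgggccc
lgc-47, chrX:9805537-9805737: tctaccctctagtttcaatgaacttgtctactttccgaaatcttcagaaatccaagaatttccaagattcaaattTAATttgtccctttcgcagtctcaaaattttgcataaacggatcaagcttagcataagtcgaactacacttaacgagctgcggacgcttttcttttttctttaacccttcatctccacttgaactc
lgc-46, chrIII:1131651-1131851: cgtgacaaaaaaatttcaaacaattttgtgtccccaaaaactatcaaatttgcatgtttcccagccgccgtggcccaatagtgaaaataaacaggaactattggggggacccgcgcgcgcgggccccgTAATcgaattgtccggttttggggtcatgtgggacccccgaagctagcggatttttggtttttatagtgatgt
lgc-57, chrII:10696141-10696341: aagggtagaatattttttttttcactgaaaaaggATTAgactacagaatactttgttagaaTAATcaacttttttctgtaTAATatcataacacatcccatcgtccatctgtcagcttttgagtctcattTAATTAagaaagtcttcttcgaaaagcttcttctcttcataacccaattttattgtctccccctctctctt
lgc-30, chrIV:927596-927796: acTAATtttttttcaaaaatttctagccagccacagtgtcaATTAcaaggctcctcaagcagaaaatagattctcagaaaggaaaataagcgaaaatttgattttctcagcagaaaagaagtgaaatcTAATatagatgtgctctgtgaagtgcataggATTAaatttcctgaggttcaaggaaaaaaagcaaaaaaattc
lgc-53, chrX:16714601-16714801: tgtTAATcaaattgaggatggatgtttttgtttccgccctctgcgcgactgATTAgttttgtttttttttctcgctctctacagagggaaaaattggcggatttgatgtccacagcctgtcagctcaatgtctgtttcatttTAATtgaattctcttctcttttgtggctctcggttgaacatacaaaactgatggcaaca
lgc-38, chrIII:7012291-7012491: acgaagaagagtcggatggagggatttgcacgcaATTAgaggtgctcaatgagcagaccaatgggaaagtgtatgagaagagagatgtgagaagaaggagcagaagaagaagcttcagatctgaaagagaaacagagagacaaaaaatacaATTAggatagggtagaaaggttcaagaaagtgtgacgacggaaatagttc
lgc-4, chrX:9238462-9238662: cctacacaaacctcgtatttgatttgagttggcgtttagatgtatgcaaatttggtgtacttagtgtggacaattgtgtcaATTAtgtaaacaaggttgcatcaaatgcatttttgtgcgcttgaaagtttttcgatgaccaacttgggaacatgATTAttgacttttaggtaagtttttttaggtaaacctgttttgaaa
lgc-37, chrIII:12783976-12784176: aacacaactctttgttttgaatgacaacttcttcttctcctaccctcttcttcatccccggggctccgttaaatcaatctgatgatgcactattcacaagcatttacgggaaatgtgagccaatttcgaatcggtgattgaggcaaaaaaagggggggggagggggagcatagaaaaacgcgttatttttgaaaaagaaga

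These windows differed in how many TAAT cores they held and where. The window of lgc-47 with the highest signal held 2 of them, the nearer 2 bp from the summit. The window of lgc-57 held 5, of which a pair overlapped in TAATTA, the core that joins both orientations, and the nearest was 17 bp from the summit. The window of lgc-30 held 4, that of lgc-53 held 3 and that of lgc-46 held 1. Over the 15 summits of bound channel genes, 10 windows had at least 1 TAAT core, beside 76.0% of all 4780 optimal windows, and 5 had 0. With 50 bp to each side of the summit it was 9 of the 15 beside 54.7%, so that the channel genes' share lay below that of all windows at the wider width and above it at the narrower. The median was 1 core for the channel genes and 2 for all windows. TAATTA lay in 1 of the 15 windows, at lgc-57, beside 10.9% of all. The pair of facing cores 3 bases apart, TAATNNNATTA, lay in 0 of the 15, beside 1.88% of all, and the pair facing away, ATTANNNTAAT, in 0 beside 1.17%.

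The other motifs were searched on both strands in the same windows. The GA repeat GAGAGAGA was found in 0 of the 15 windows, beside 11.7% of all optimal windows. GATA was found in 9 windows beside 61.8%, the E-box CANNTG in 7 beside 55.4%, and TATAAA in 1, at lgc-46, beside 12.5%. The POU octamer ATGCAAAT lay in 2 windows, those of lgc-46 and lgc-4, beside 2.28% of all, and in 0 of the 15 beside 1.09% with 50 bp to each side. GC content of the 15 windows had a median of 39.3% and ranged from 31.3 to 55.7%, beside a median of 41.8% for all optimal windows. A match is a description of the letters, and its absence says only that they are not in the window.

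The strongest signals were at lgc-47 and lgc-46, which encode acetylcholine-gated chloride channels. They were grouped with their relatives lgc-48 and lgc-49. Of these 4 genes 2 were bound (95% exact interval 6.76 to 93.2%), beside 19.6% of all genes. lgc-47 (X, 9801081 to 9807662, minus strand) had 4 optimal summits. Its strongest lay 3827 bp inside the gene, in intron 8 of 11, with a pooled signal of 480.2 at rank 129. In replicate 1 the signal at this site was 241 at rank 87, and in replicate 2 it was 238 at rank 179. Signal is the value of the authors' peak caller and has its own scale in each list, so ranks rather than signals are set side by side. The second lay 2025 bp inside, in intron 5, with a pooled signal of 272 at rank 630, and ranked 571 in replicate 1 and 697 in replicate 2. Both intronic sites were thus at rank 697 or better in each replicate list.

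The other lgc-47 summits sat at its annotated start and repeated less evenly. That in the 5' UTR, 43 bp inside the gene, had a pooled signal of 111 at rank 3295, with ranks of 4644 in replicate 1 and 2517 in replicate 2. That 200 bp upstream had a signal of 92.8 (rank 4149), with rank 9206 in replicate 1 against 3556 in replicate 2. The relaxed pooled list, which was made as input for the irreproducible discovery rate and also holds background, had 10 entries at lgc-47, the highest number among the channel genes. Of the 3917 bound genes, 95 (2.43%) had 4 or more optimal summits and 801 (20.4%) had 2 or more, while among the 11 channel genes these were lgc-47 alone and lgc-47 with lgc-46.

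lgc-46 (III, 1125230 to 1136025, minus strand) had its strongest summit 4274 bp inside the gene in intron 5 of 11, an intron of 4169 bp. The pooled signal there was 378 at rank 263, and the site ranked 219 in replicate 1 and 324 in replicate 2. Its second summit lay 996 bp upstream with a pooled signal of 104 at rank 3585, and ranked 5998 in replicate 1 and 3147 in replicate 2. Replicate 1 had a stronger entry at rank 4198 nearby, 854 bp upstream of the gene. The whole of lgc-46 lies within acsd-1 on the opposite strand (III, 1116466 to 1142927), the gene of a decarboxylase of tryptophan breakdown, so both summits fall in the body of acsd-1 as well. They cannot be assigned to either gene by position, although the 5' end of lgc-46 was nearer, with that of acsd-1 at 15285 and 20555 bp. The remaining members of the group, lgc-48 and lgc-49, had no entry in any of the relaxed lists.

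**Figure D1:**
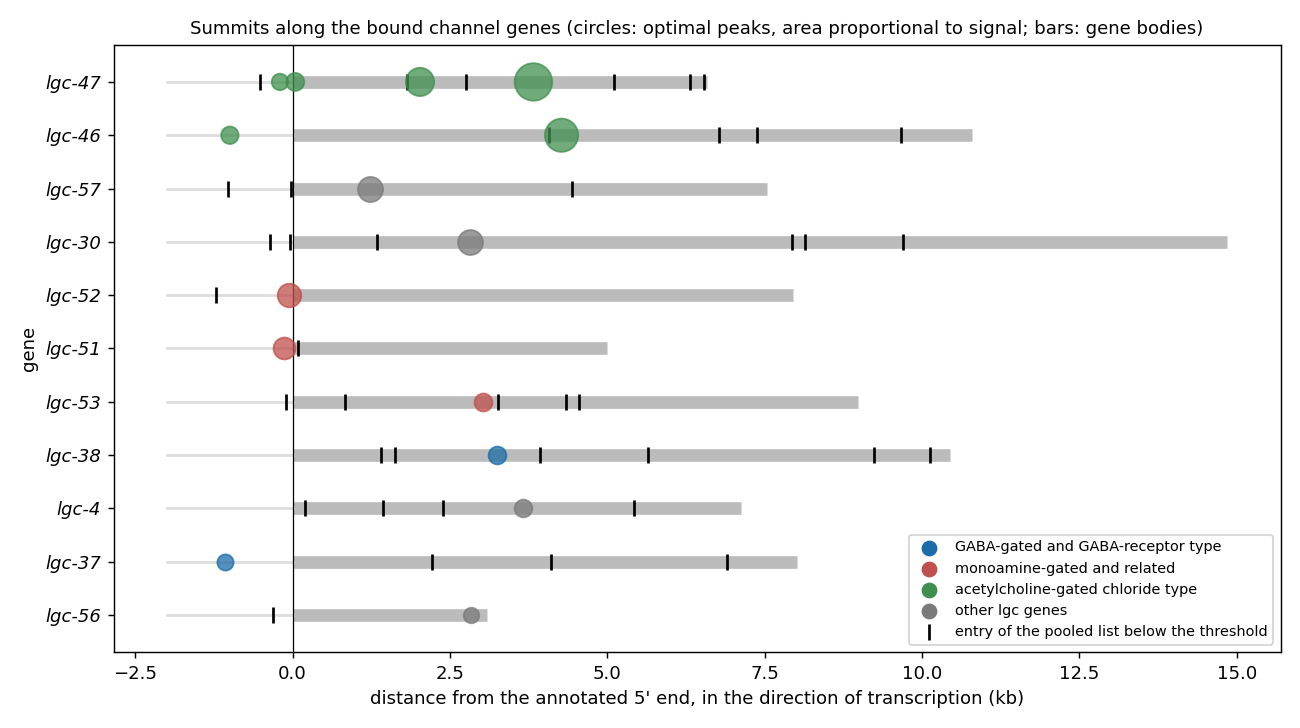
Position of ChIP-seq summits along the 11 bound channel genes. The x axis is the distance in kb from the annotated 5' end, negative upstream, grey bars are gene bodies, circles are optimal summits with area proportional to pooled signal and coloured by channel group, and black ticks are entries of the pooled list below the threshold. The largest circles lie inside lgc-47, at 3827 bp and a signal of 480.2, and inside lgc-46, at 4274 bp and a signal of 378.

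Among the channels of the monoamine group, 3 of 7 were bound (95% exact interval 9.90 to 81.6%), beside 19.6% of all genes. All 7 fell in the longest length class set out below, in which 34.1% of all genes were bound. lgc-52 (IV, 15236123 to 15244067) had a summit 57 bp upstream of its 5' end, with a pooled signal of 190.1 at rank 1397 and ranks of 1252 and 1565 in replicates 1 and 2. The same summit lay 1073 bp upstream of pkd-2, the polycystin gene of male sensory neurons, which is transcribed the other way. The summit of lgc-51 (I, 2242230 to 2247223) lay 136 bp upstream with a signal of 163 at rank 1850, and its ranks of 1867 and 1861 in replicates 1 and 2 were nearly equal. It also lay 842 bp upstream of the divergent gene W03F11.4. For lgc-53 (X, 16711681 to 16720670), which encodes a dopamine-gated anion channel, the summit was 3020 bp inside the gene in intron 2 of 12, an intron of 4513 bp. Its pooled signal was 109.9 at rank 3349, and it ranked 2901 in replicate 1 and 4486 in replicate 2. Of these genes lgc-51 and lgc-52 thus had their peak at the start and lgc-53 had it deep in a long intron.

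The named serotonin- and tyramine-gated channels mod-1, lgc-50 and lgc-55 were not bound. mod-1, the serotonin-gated chloride channel, had no entry in the pooled list or in the replicate 1 list, and had 1 in replicate 2 at rank 12099. The nearest upstream optimal summit lay 4199 bp upstream of it, with a signal of 129. lgc-50, a serotonin-gated cation channel, had 1 pooled entry at rank 19570, near the end of a list of 23778. Its nearest upstream optimal summit lay 3737 bp upstream with a signal of 167. lgc-55, the tyramine-gated chloride channel of neck muscle and interneurons, had a pooled entry 95 bp upstream with a signal of 48.5 at rank 8700, which ranked 13903 in replicate 1 and 7783 in replicate 2. lgc-54 had 1 pooled entry, at rank 14423.

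GABA-gated channels and channels of the GABA receptor type were bound at 2 of 7, at the weaker end of the optimal set. The 95% exact interval of this share was 3.67 to 71.0%, beside 19.6% of all genes and 34.1% of those in the longest length class, which held all of the group but lgc-36. lgc-38 (III, 7009136 to 7019584) had a summit 3255 bp inside the gene in intron 2 of 13, where the non-coding RNA gene F11H8.7 is also annotated. Its pooled signal was 109 at rank 3395, and its ranks were 2526 in replicate 1 and 4369 in replicate 2. lgc-37 (III, 12785154 to 12793176) had an intergenic summit 1078 bp upstream with a signal of 89.5 at rank 4336, which ranked 4184 and 4320. This gene stands head to head with gab-1 (III, 12771868 to 12779726), and the same summit lay 4350 bp upstream of gab-1, outside the 2000 bp reach.

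All 7 genes of the GABA group had at least 1 entry in the relaxed pooled list, beside 52.6% of all protein-coding genes. unc-49, which encodes the GABA-gated chloride channel of body wall muscle, had 7 pooled entries. The strongest lay at +1018 bp from the 5' end and had rank 5489 and a signal of 72.5, below the weakest optimal peak at 81.6. Replicate 2 had an entry there at rank 5665, and the strongest entry of replicate 1, at rank 5581, lay further in, at 1156 bp. gab-1, a GABA receptor subunit, had its strongest entry 808 bp inside with a signal of 62.6 at rank 6471. This entry had no match within 100 bp in replicate 2. exp-1, the GABA-gated cation channel of enteric muscle, had 5 pooled entries, the strongest 1875 bp inside with a signal of 59.1 at rank 6898. That strongest entry had no match within 100 bp in replicate 1. lgc-35, another GABA-gated cation channel, had 1 entry at rank 16390 that was absent from replicate 2, and lgc-36 had 1 at rank 21742 that was absent from replicate 1. Over the monoamine group 6 of 7 genes had a pooled entry, over the acetylcholine-gated chloride group 2 of 4, and over the other lgc genes 20 of 42, each beside the same 52.6% of all genes. The counts of the last 2 groups were near that share. Gene length was not matched in these comparisons. All genes of the monoamine group, and all of the GABA group but lgc-36, fell in the longest length class set out below. In that class 34.1% of all genes were bound by an optimal summit, beside 19.6% over all classes. The share of that class with an entry in the relaxed pooled list was not computed. The counts of pooled entries therefore have no share of like length beside them.

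The other 42 lgc genes, whose ligands are left unnamed here, had 4 bound members. This share had a 95% exact interval of 2.66 to 22.6%, beside 19.6% of all genes. lgc-57 (II, 10695013 to 10702555) had a summit 1228 bp inside, in its first intron of 2085 bp, with a pooled signal of 215 at rank 1086 and ranks of 952 and 1148 in replicates 1 and 2. lgc-30 (IV, 924882 to 939736) likewise had its summit in the first intron, 2814 bp inside, with rank 1110 and a signal of 213. Replicate 1 placed it at 1387 and replicate 2 at 921. These 2 genes stood well inside the optimal set in each replicate. The summit of lgc-4 (X, 9235103 to 9242223) lay 3661 bp inside in intron 4 of 11, with a signal of 108 at rank 3439, and ranked 5417 in replicate 1 against 2698 in replicate 2. The summit of lgc-56 (II, 5130381 to 5133472) lay in the 3' UTR, 250 bp from the end of the gene, with a signal of 82.4 at rank 4725. In replicate 1 the site ranked 10521 and in replicate 2 it ranked 3709, the widest gap among the 15 summits.

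**Figure D2:**
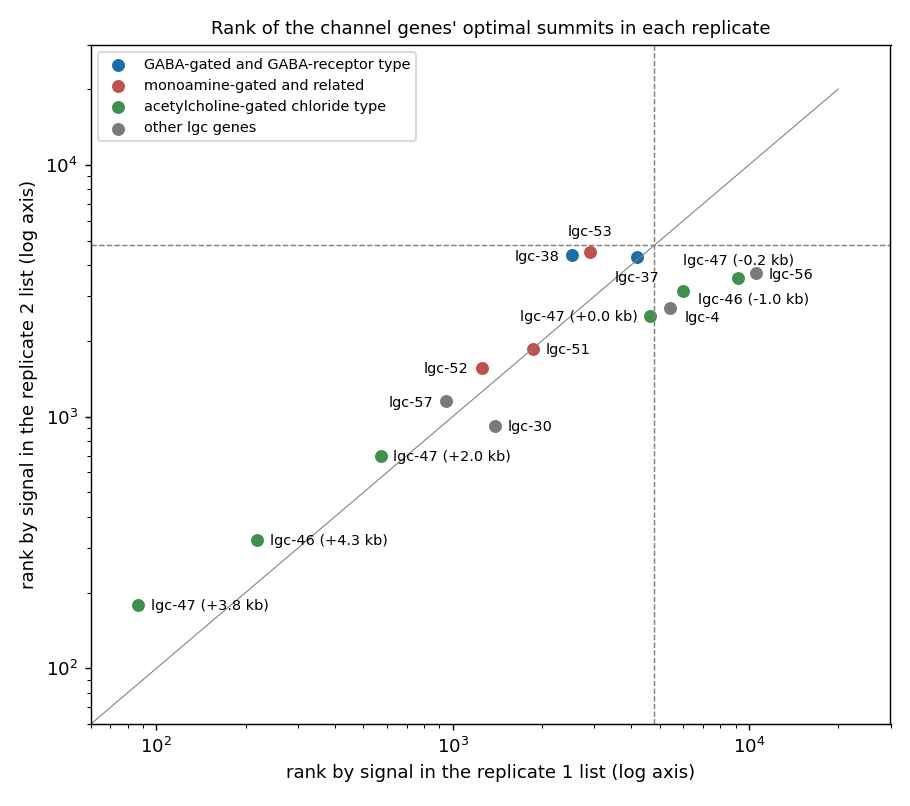
Rank by signal of the 15 optimal summits of the channel genes in the replicate 1 list (x axis) and the replicate 2 list (y axis), both on log axes, coloured by channel group. Dashed lines mark rank 4780 in each list and the solid line marks equal ranks. The intronic summits of lgc-47 and lgc-46 lie at the lower left, and the summits of lgc-4 and lgc-56, with the upstream ones of lgc-46 and lgc-47, lie beyond the dashed line of replicate 1 alone.

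All 15 summits had an entry within 100 bp in each replicate list, and 11 of them ranked within the first 4780 in both. The 4 that did not, at lgc-4, lgc-56, upstream of lgc-46 and upstream of lgc-47, were all weaker in replicate 1. The optimal set was itself made from these replicates, so such matches are no independent support. No share of all 4780 optimal summits stands beside these counts. When the 4780 strongest entries of replicate 1 alone were used, 10 channel genes were bound, beside 19.3% of all genes. Of the 11, lgc-4 and lgc-56 dropped out, and lgc-58 came in through an entry 3297 bp inside the gene at rank 3275. Replicate 2 had no entry within 100 bp of that site, its nearest being 3681 bp away, and neither did the pooled list. Replicate 2 alone gave the same 11 genes, beside 19.4%. The deposited text files name 1 further file, taken here to be the control, behind each of the relaxed lists, and what it adds to the overlap was not tested.

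The bound channel genes were long. Their median body was 7945 bp, against 3552 bp for the 49 other channel genes and 2027 bp for all protein-coding genes. A longer span has more room for a summit. All genes were split into 4 classes of about equal size by the length of body and upstream reach together. The longest class, from 5637 bp upward, held 34 of the 60 channel genes, and 10 of these were bound (29.4%, 95% exact interval 15.1 to 47.5%), beside 34.1% of all genes of that class. In the class from 4028 to 5636 bp, 1 of 20 was bound (interval 0.127 to 24.9%) beside 17.8%. From 3216 to 4027 bp it was 0 of 6 (upper limit 45.9%) beside 12.6%, and the shortest class held no channel gene. In each class the share of all genes lay within the interval of the channel genes.

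Summits fell inside the bodies of these genes more than before them. Of the 15 summits 10 lay inside and 5 upstream, and 8 lay in an intron of the channel gene itself, a ninth in an intron of acsd-1. Introns held 28.2% of all optimal summits, a share that also counts summits in no gene's span and is not matched for gene length. Counting bodies alone, 8 of 60 channel genes were bound (13.3%, 95% exact interval 5.94 to 24.6%) beside 5.44% of all genes, which lies just below the interval. In the longest class, where length is closer to equal, this was 7 of 34 (20.6%) beside 16.1%. Counting by the start instead, 6 channel genes had the nearest 5' end to a summit within 2000 bp beside 12.5% of all genes, and 6 had any summit within 2000 bp on either side of the 5' end beside 18.7%. lgc-30, lgc-53, lgc-38, lgc-4 and lgc-56 were the bound genes that both rules left out.

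Under the other settings that follow, the share of all genes lay within the 95% exact interval of the channel genes' share. With 1000 bp upstream 10 channel genes were bound beside 16.0% of all genes, and with 5000 bp 22 were bound beside 27.8%. Requiring only that a peak interval touch the span gave 12, with lgc-20 added, beside 21.0%. The 2390 strongest peaks gave 6 (lgc-47, lgc-46, lgc-57, lgc-30, lgc-52 and lgc-51) beside 11.0%. Summits that fell in the span of a single gene gave 8 beside 8.91%, since those of lgc-46, lgc-51 and lgc-52 were shared with a neighbour. Over all entries, the pooled list reached 35 of the 60 channel genes beside 52.6%, the replicate 1 list 35 beside 54.3% and the replicate 2 list 32 beside 50.6%.

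**Figure D3:**
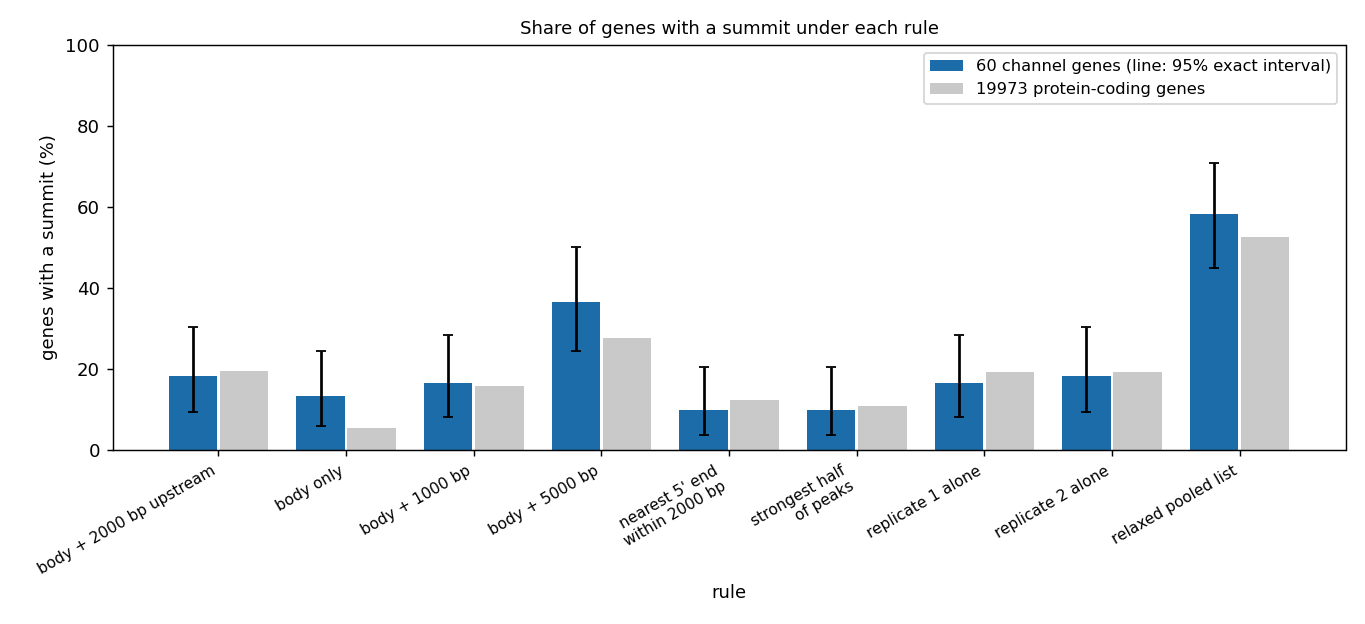
Share of genes with a summit under each rule (y axis, percent), for the 60 channel genes in blue with 95% exact intervals and for all 19973 protein-coding genes in grey. The bars are close for most rules, with 18.3% against 19.6% for the rule used, and furthest apart in ratio for gene bodies alone, with 13.3% against 5.44%.

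The threshold and the reach divided the channel genes as follows. Just inside the signal threshold stood lgc-56 at 82.4 and lgc-37 at 89.5, and just outside stood lgc-27 at 74.8, rank 5305, and unc-49 at 72.5. lgc-39 followed with an entry 369 bp upstream, a signal of 69.4 and rank 5761. Just inside the upstream reach was lgc-37 at 1078 bp. Just outside were lgc-20, with an optimal summit of signal 119 at 2191 bp, and lgc-44, with one of 289 at 2204 bp. The summit near lgc-20 lay in the span of nduf-11 and that near lgc-44 in the span of ape-1. For each unbound channel gene the nearest optimal summit between 2000 and 5000 bp upstream was taken, and any beyond it were not ranked. The strongest of these was at lgc-13, 2947 bp away, with a signal of 403 at rank 216. It lay in the span of no gene by the 2000 bp rule.

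**Figure D4:**
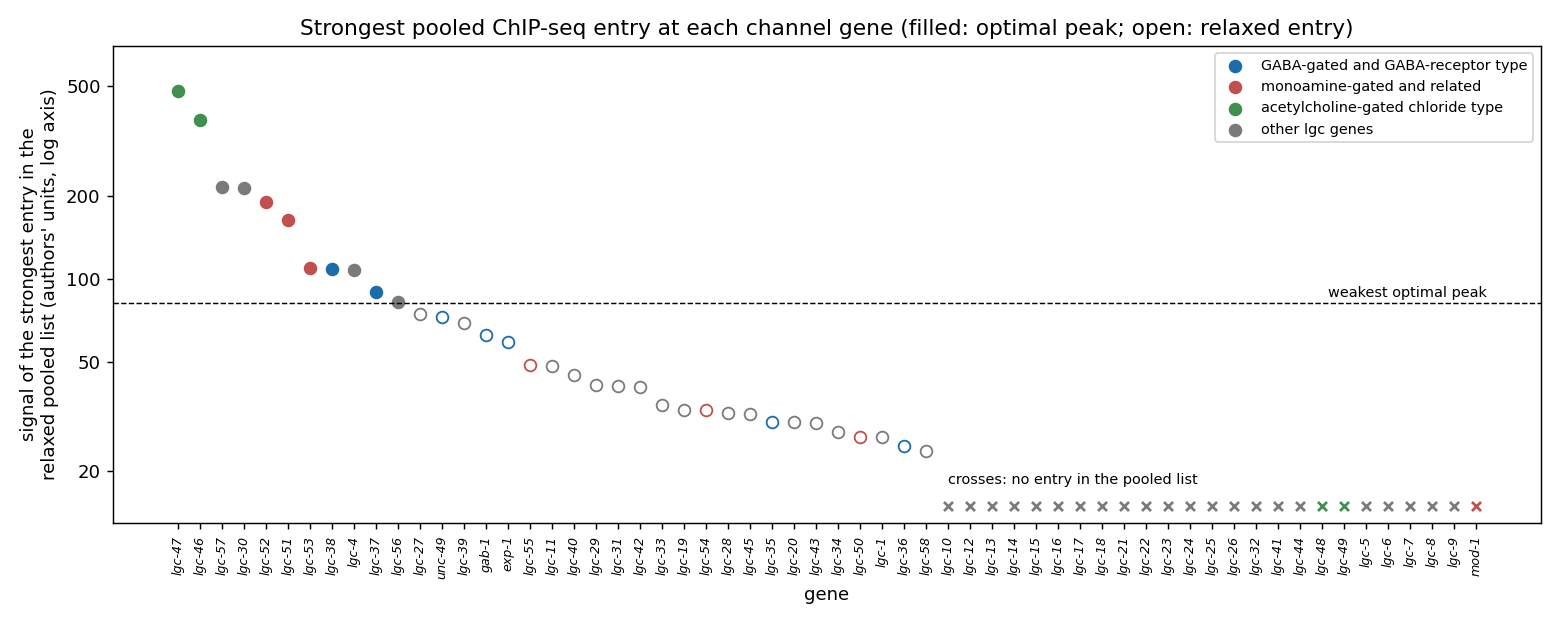
Signal of the strongest entry in the relaxed pooled list (y axis, log scale, authors' units) at each of the 60 channel genes, ordered by signal and coloured by channel group. Filled circles are bound by an optimal peak, open circles have a weaker entry, crosses mark the 25 genes with no pooled entry, and the dashed line is the weakest optimal peak at 81.6.

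The channel genes with no entry in any of the 3 relaxed lists numbered 19, beside 35.9% of all protein-coding genes. They were unevenly placed. The X chromosome held 12 of its 18 channel genes in this state, beside 28.9% of all genes on X. They included lgc-13, lgc-14, lgc-15, lgc-16 and lgc-17, which stand next to each other on the same strand in 15883 bp (X, 12109166 to 12125048), and lgc-23 with lgc-24, a neighbouring pair in 5356 bp (X, 12065208 to 12070563). Both stretches lacked an entry in the pooled and in each replicate list, as did lgc-18, which starts at 12125608 just beyond lgc-17. The spans of several of these neighbours overlap, so the X genes without an entry are not independent observations. On chromosome V 4 of 12 had no entry, beside 2499 of all 4994 V genes, and on chromosome IV 3 of 12, among them the adjacent lgc-7 and lgc-8, beside 40.1% of IV genes. Of the 9 channel genes on chromosome II 0 lacked an entry, beside 34.5% of its genes, and of the 8 on III 0, beside 23.5%. The median body of the 19 genes was 2950 bp, longer than the 1559 bp of all genes without an entry.

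Bound channel genes were spread in another way. Chromosome III had 3 of 8 beside 27.6% of its genes, II had 2 of 9 beside 19.2%, IV had 2 of 12 beside 18.5%, X had 3 of 18 beside 21.8%, and the single channel gene of I was bound beside 26.0%. On V 0 of 12 were bound (upper 95% limit 26.5%) beside 11.6%. With so few channel genes per chromosome, the exact intervals were wide, 8.52 to 75.5% for III and 3.58 to 41.4% for X.

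Genes that make, load or hold the same transmitters and receptors were counted by the same rule, without a test of the difference. Of 33 nicotinic and acetylcholine-gated subunit genes 6 were bound (18.2%, 95% exact interval 6.98 to 35.5%), beside 19.6% of all genes. They were acr-2, acr-12, acr-18 and unc-63 of the nicotinic type, and acc-1 and acc-4, which encode acetylcholine-gated chloride channels. The acc-1 summit, 2100 bp inside, had rank 870 and a signal of 237. Of 6 glutamate-gated chloride channel genes 3 were bound, avr-14, glc-2 and glc-4 (interval 11.8 to 88.2%). Among 14 GABA and monoamine supply genes 3 were bound (21.4%, interval 4.66 to 50.8%). The share of all genes, 19.6%, lay within the interval of each of these lists. Of the bound supply genes, unc-47, the vesicular GABA transporter, had a signal of 181 at 1761 bp upstream. cat-1, the vesicular monoamine transporter, had 178 at 2732 bp inside, and unc-30, the homeodomain factor of GABA motor neurons, had 141. The synthesis genes unc-25, tph-1, tdc-1 and cat-2 had no optimal summit in reach.

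Receptor assembly and clustering genes had the highest count of these lists, with 14 of 17 bound (82.4%, 95% exact interval 56.6 to 96.2%) beside 19.6% of all genes, with gene length not matched. This list was chosen with earlier results of these data known. The interval does not cover that choice, so no enrichment is read from the share. The bound genes included the receptor chaperone gene ric-3, whose summit lay 255 bp upstream with a signal of 199.5 at rank 1262. Another was unc-50, which is needed for receptor transport, with a signal of 139.5. lev-10, which clusters acetylcholine receptors at the muscle synapse, had a summit 1257 bp upstream with a signal of 534 at rank 91. nlg-1, unc-40 and frm-3, which take part in clustering GABA receptors at that synapse, had signals of 239.8, 242 and 101. In this list 5 of the 17 genes (29.4%) had a summit in the body, beside 5.44% of all genes. lin-2, a scaffold gene, had the highest signal of the list, 1004 at rank 7, and nra-4, crld-1 and oig-4 had no optimal summit in reach. unc-74 and acr-22 were not found under these symbols in the annotation and were left out.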

How the data were processed

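Peaks of GFP ChIP-seq were analysed from 2 biological replicates of 1 group. Per the deposited text files, the lists are on ce11, each relaxed list was made from the reads of 1 replicate or both and a further file, taken here to be the control, and the optimal set from the 3 relaxed lists. Which aligner and caller were used is not given in the sources used here. The signal value in each deposited list is the authors' score for a peak, on a scale of its own, and peaks were ranked on it. The deposited summit offset gave positions, written here 1-based. The ce10 lists were not used. No read counts were used, so depth is unknown and a peak's value has no error.

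Genes came from Ensembl release 115 for WBcel235, the assembly of ce11, and no list or gene ran past its RefSeq chromosome lengths. A summit matched a replicate entry within 100 bp, the strongest if several. Intron numbers refer to the transcript with the longest coding sequence. A summit in several features was given the first of 5' UTR, coding, 3' UTR and intron. Assignment was tested on simulated summits. Python 3.11.15, pandas 2.3.3 and scipy 1.17.1 were used. No significance test was made: there is 1 group, and shares stand beside the share of all genes with exact Clopper-Pearson intervals.

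Channel genes named are every bound channel gene, unc-49, gab-1, exp-1, mod-1, lgc-35, lgc-46, lgc-50, lgc-53 and lgc-55, the 5 unbound with the strongest pooled entry, and those beside the limits. Others were named after their values were seen. The members and lists were chosen with earlier results of these data known. Protein features were planned and not analysed. The TAAT core and the split by length and chromosome were added after seeing the data.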

Additional observations from a re-analysis of the deposited data

How the results depend on the processing

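The count of 11 bound channel genes was within 1.5 times of itself with gene bodies alone, with 1000 bp upstream, with peak intervals, with summits in the span of 1 gene and with each replicate alone. It was 22 with 5000 bp upstream, 6 by the nearest 5' end, 6 by any 5' end within 2000 bp, 6 in the strongest 2390 peaks and 35 in the relaxed pooled list. These compare counts alone. With bodies alone the share of all genes was 5.44%, against 19.6% by the rule used. The GABA group (2) had 1 with bodies alone, 1 with 1000 bp, 4 with 5000 bp, 1 by the nearest 5' end, 1 by any 5' end, 0 in the strongest peaks and 7 in the relaxed list. The monoamine group (3) had 1 with bodies alone, 5 with 5000 bp, 6 in the relaxed list and 1 with unshared summits. The acetylcholine-gated chloride group (2) had 1 with unshared summits. The other lgc genes (4) had 11 with 5000 bp, 1 by the nearest and 1 by any 5' end, 2 in the strongest peaks and 20 in the relaxed list. Of all genes, 16.0% were called with 1000 bp, 27.8% with 5000 bp, 12.5% by the nearest and 18.7% by any 5' end. The strongest peaks called 11.0% of all genes, the relaxed list 52.6% and unshared summits 8.91%. Of 100 alternative values over 29 results, 69 stayed within 1.5 times and 31 did not. All 11 bound genes had a summit matched in both replicates within 100 and 200 bp, and 9 within 50 bp. Making the optimal set from these same replicates favours such matches. Among motifs, the E-box count of 7 was 4 with 50 bp and 11 with 200 bp to each side, and the GATA, TATA, octamer and joined homeodomain core counts moved by over 1.5 times in at least 1 width. In replicate 1 alone lgc-4 ranked 5417 and lgc-56 10521. The cause of these shifts was not tested. No paired analysis was possible because there is 1 group. Unknown depth limits every absence of a peak: a site that was not called may be below detection.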
